A study of Danio rerio with 6 samples.

Results

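The genes described here encode the enzymes of glycolysis and gluconeogenesis, the dehydrogenases that exchange pyruvate and lactate, 3 glucose carriers and 2 bifunctional regulatory enzymes. They were chosen by name from a list of 50 zebrafish genes. Of these, 48 had a row in the count tables, each on a single row, out of 32053 named rows in all. The other 2, the aldolase names aldoba and aldobb, had no row and are not analysed here. The study sequenced RNA from zebrafish 5 days old (counted from fertilization), and the labels give the tissue as intestinal. Exposed embryos (3 libraries, titled BP_3) were incubated with 2 mg/L of BP-3, an abbreviation commonly used for the ultraviolet filter benzophenone-3, and the other 3 libraries (titled WT) are labelled control, with no vehicle stated. No genotype, transgene or strain beyond zebrafish is given for either group. Replicates 1, 2 and 3 of the exposed libraries carry the treatment entries BP-3, BP-4 and BP-5, but no compound other than BP-3 appears in their titles or protocol, so they form 1 group here. The labels do not say how many embryos went into a library or whether replicates came from separate clutches, so p-values measure only the spread between these libraries.

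Glycolysis splits glucose into pyruvate in the cytosol and yields ATP, and lactate dehydrogenase restores the NAD+ it consumes when pyruvate is not oxidised in mitochondria. Gluconeogenesis runs the reversible steps backwards and bypasses the irreversible ones with its own enzymes, namely pyruvate carboxylase, phosphoenolpyruvate carboxykinase, fructose bisphosphatase and glucose-6-phosphatase. In vertebrates the liver, kidney and intestine make and release glucose, whereas muscle and brain mainly consume it, and most steps have paralogs whose expression differs between these tissues. Many zebrafish genes of the pathway are kept as a pair of duplicates, marked a and b.

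Levels are given as CPM, a gene's counts scaled to a common library size (per 1000000 counts), which is not corrected for gene length and so compares a gene between libraries but not genes with each other. Library totals lay between 24000785 and 41726516 counts in BP-3 and between 23567603 and 36961866 counts in control. The replicate 3 libraries had the lowest total of each group and stood apart: their counts differed from those of replicates 1 and 2 by a chi-square per degree of freedom of 15.4 to 20.5, where those replicates differed from each other by 7.34 in BP-3 and 5.33 in control. Leaving both out gave 17 members higher and 5 lower, in place of 14 and 2, with gpia, gapdhs and pkma added to those higher and aldoca, fbp1a and g6pca.2 to those lower. Apart from g6pcb, with 3 to 24 counts per library, the members had between 105 and 69214 counts in each library. Markers of other tissues were present in every library, and all list genes found in the files had counts in at least 1 library. In control, skeletal muscle markers took 9.36% of counts on average, epidermis 2.62%, retina and lens 1.06% and anterior enterocyte 0.744%. In BP-3 these means were 8.61%, 2.31%, 0.909% and 1.09%. The lists differ in size, so these shares are not tissue proportions. Despite the intestinal label, the levels given here cannot be read as those of intestine alone. Summed hepatocyte markers lay at 8363 to 9575 CPM in BP-3, against 5355 to 6179.5 CPM in control, and 15 of 22 rose and 1 fell (edgeR adjusted p at most 0.05). Summed anterior enterocyte markers lay at 10715 to 11033 CPM in BP-3, against 7152 to 7866 CPM in control, and 8 of 18 rose and 1 fell. Erythrocyte markers lay at 1557 to 2025 CPM in BP-3, against 1066 to 1321 CPM in control, with 8 of 16 higher. The hepatocyte, anterior enterocyte and erythrocyte lists were thus higher in summed level in every exposed library than in any control library. Lysosome-rich enterocyte markers overlapped, at 1051 to 1218 CPM in BP-3, against 967 to 1093 CPM in control, with 3 of 10 higher and 1 lower. Exocrine pancreas markers had a lower mean sum in BP-3 but overlapped, at 9778 to 13011 CPM in BP-3, against 12014 to 15841 CPM in control, with 4 of 16 lower. The summed levels of the muscle, nervous system, retina and lens, and epidermis lists lay lower in BP-3 without overlap. Epidermis markers summed to 22520 to 23845 CPM in BP-3, against 25009 to 26947 CPM in control, with 2 of 16 lower and 1 higher. Skeletal muscle markers summed to 82259.9 to 88536 CPM in BP-3, against 88720.0 to 97001 CPM in control, with 1 of 30 past the threshold, which was lower. Central nervous system markers summed to 3244 to 3389 CPM in BP-3, against 3709.8 to 3878 CPM in control, with 5 of 22 lower, and retina and lens markers to 8536 to 9565 CPM in BP-3, against 9787 to 11107 CPM in control, with 8 of 23 lower. The 8 lower genes of the retina and lens list were the lens genes cryaa, cryba1b, crybb1, crybb1l1, crygmx, mipa and lim2.4 and the photoreceptor gene rcvrna. The photoreceptor genes gnat2, opn1sw2, opn1mw1, pde6c and rbp3 had log2 fold changes of 0.016 to 0.090. Those of the other 18 genes of this list were negative. In bulk tissue, fewer cells of a type and less RNA per cell cannot be told apart.

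After exposure, most steps had a gene that passed the test, but most of the pathway's genes with high counts did not pass. Of the 48 members, 14 rose and 2 fell at an adjusted p of 0.05 (quasi-likelihood test of edgeR, Benjamini-Hochberg adjusted over 23167 rows). That is 33.3% of the members, where 10.6% of all rows tested passed. By direction, 29.2% of members rose, where 6.26% of all rows did, and 4.17% fell, where 4.29% of all rows did. The gluconeogenic enzymes had 5 of 10 higher, the lactate dehydrogenases 2 of 3, and the glycolytic enzymes with their regulators 6 of 32 higher and 1 lower. The carriers had 1 of 3 higher and 1 lower. The median log2 fold change was 0.12 over the members and -0.00099 over all rows tested. The CPM of the groups did not overlap in 24 members, where they did not in 31% of all rows. All BP-3 libraries lay above all control libraries in 18 of them, the higher direction holding 16.1% of all rows, and below in 6, the lower direction holding 14.9%. All members together took 1.04 ± 0.0437% of counts in BP-3 and 0.952 ± 0.0640% in control (SD, n = 3 each).

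**Figure D1:**
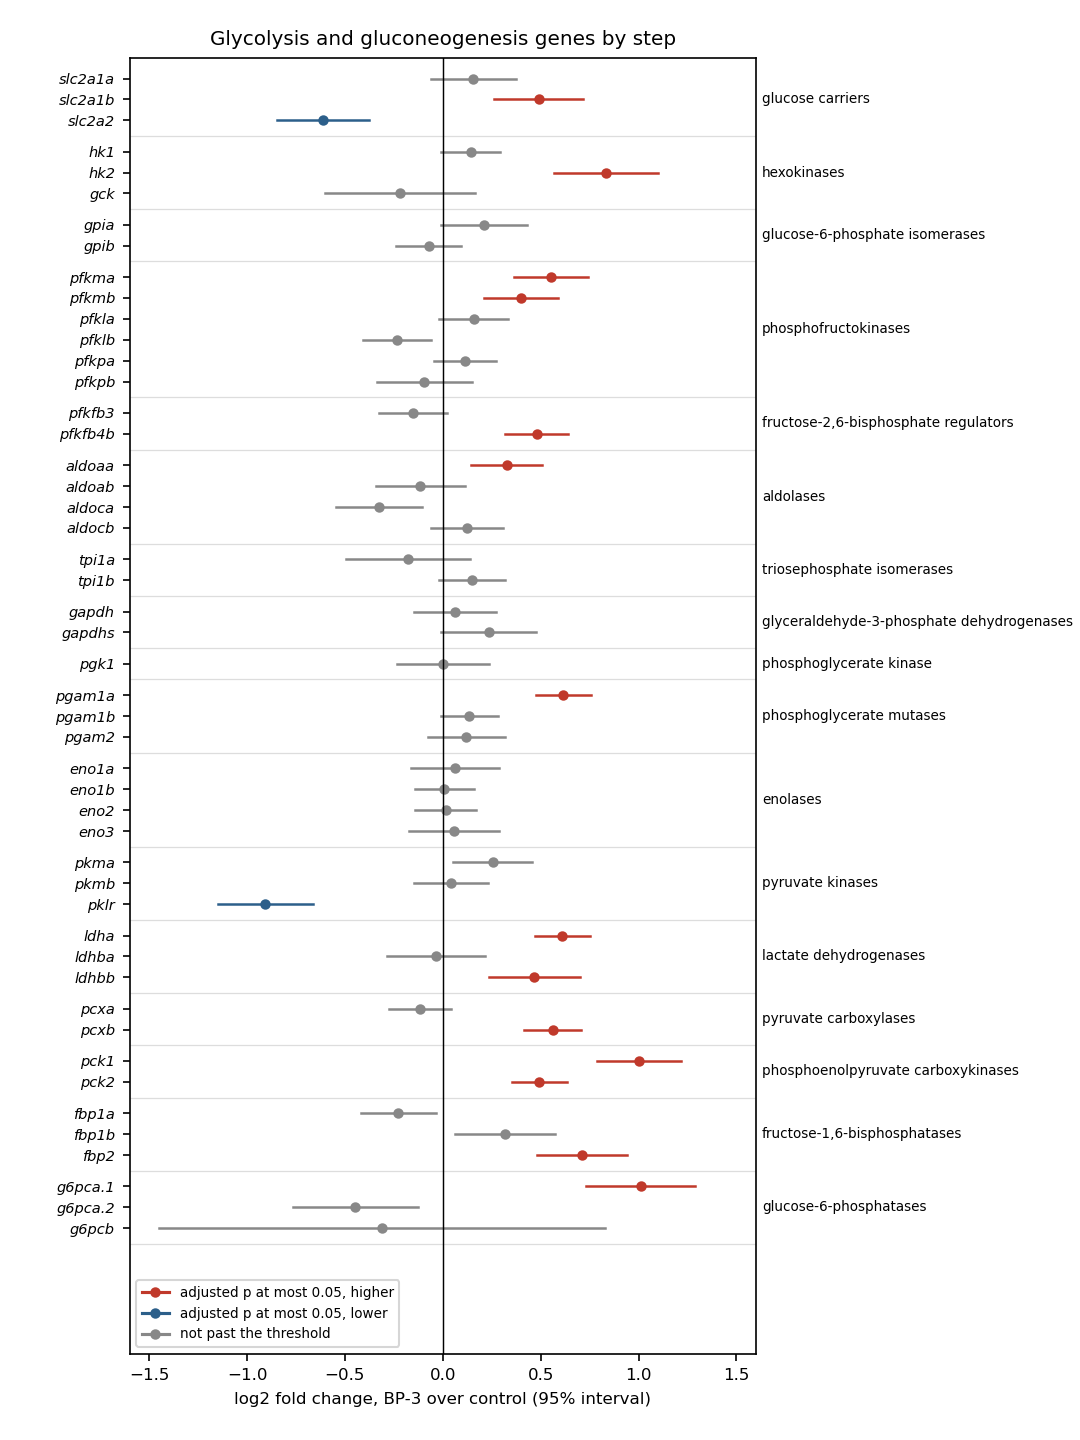
Log2 fold change (BP-3 over control, x axis) of the 48 members, grouped by step down the page; dots are estimates from 3 libraries per group and bars their 95% intervals, not adjusted for multiple tests. The 14 members past the threshold and higher (red) and the 2 lower (blue) are spread over 12 of the 17 steps, while the enolases, glucose-6-phosphate isomerases, triosephosphate isomerases, glyceraldehyde-3-phosphate dehydrogenases and phosphoglycerate kinase have no coloured member.

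Among the 3 glucose carriers of the list, a GLUT1 gene rose and the GLUT2 gene fell. GLUT1, encoded by slc2a1a and slc2a1b, is the widespread carrier of basal glucose uptake, and GLUT2, encoded by slc2a2, is in mammals the low-affinity carrier of hepatocytes, enterocytes and pancreatic beta cells. For slc2a2 the levels were 30.5, 27.3 and 28.2 CPM in BP-3 replicates 1 to 3, against 39.2, 40.9 and 51.2 CPM in control replicates 1 to 3, so every exposed library lay below every control library. This gene was 1.53-fold lower (log2 fold change -0.61 ± 0.11 SE, edgeR adjusted p = 0.00599). The duplicate slc2a1b had 28.0, 27.9 and 22.0 CPM in BP-3 replicates 1 to 3, against 19.1, 18.2 and 18.3 CPM in control replicates 1 to 3, without overlap, and was 1.40-fold higher (log2 fold change 0.49 ± 0.10 SE, edgeR adjusted p = 0.0142). The call of slc2a1b was lost without BP-3 replicate 1 (edgeR adjusted p = 0.0669), BP-3 replicate 2 (0.0735) or control replicate 2 (0.0583). Its duplicate slc2a1a overlapped between groups, with a log2 fold change of 0.16 (95% interval -0.06 to 0.37, edgeR adjusted p = 0.351).

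Hexokinases trap glucose in the cell by phosphorylation. The gene hk2, whose mammalian product is the insulin-responsive hexokinase of muscle and fat, had 11.6, 11.2 and 9.88 CPM in BP-3 replicates 1 to 3, against 5.78, 6.75 and 5.82 CPM in control replicates 1 to 3. The exposed libraries all lay above the control libraries, and hk2 was 1.78-fold higher (log2 fold change 0.83 ± 0.12 SE, edgeR adjusted p = 0.00225). The widely expressed hk1 did not overlap between groups either, but its difference was small, with a log2 fold change of 0.14 (95% interval -0.0069 to 0.29, edgeR adjusted p = 0.214). Glucokinase, gck, the glucose sensor of liver and beta cells, overlapped, with a log2 fold change of -0.22 (95% interval -0.60 to 0.16, edgeR adjusted p = 0.467). The isomerase genes gpia and gpib, whose products convert glucose-6-phosphate to fructose-6-phosphate, had log2 fold changes of 0.21 and -0.072, neither past the threshold.

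At phosphofructokinase, the committed and most tightly regulated step of glycolysis, both genes of the muscle-type subunit rose and the genes of the liver and platelet types did not pass the test. The levels of pfkma were 143, 136 and 124 CPM in BP-3 replicates 1 to 3, against 95.7, 96.2 and 82.3 CPM in control replicates 1 to 3, with the lowest exposed library above the highest control library. It was 1.47-fold higher (log2 fold change 0.55 ± 0.086 SE, edgeR adjusted p = 0.00342). Its duplicate pfkmb, at 29.4, 27.4 and 26.5 CPM in BP-3 replicates 1 to 3, against 21.6, 22.2 and 19.2 CPM in control replicates 1 to 3, was 1.32-fold higher (log2 fold change 0.40 ± 0.085 SE, edgeR adjusted p = 0.0158). Without BP-3 replicate 1, BP-3 replicate 2 or control replicate 1 the call of pfkmb was lost (edgeR adjusted p = 0.0734, 0.0597 and 0.0505). The liver-type genes pfkla and pfklb had log2 fold changes of 0.16 and -0.23, and the platelet-type genes pfkpa and pfkpb 0.11 and -0.094. The summed level of skeletal muscle markers was lower in BP-3, as given above, and the part of muscle content in the values of pfkma and pfkmb was not tested.

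The bifunctional PFKFB enzymes make and degrade fructose-2,6-bisphosphate, the strongest activator of phosphofructokinase. The gene pfkfb4b had 68.1, 71.1 and 64.3 CPM in BP-3 replicates 1 to 3, against 50.8, 47.8 and 47.2 CPM in control replicates 1 to 3. All exposed libraries lay above all control libraries, and pfkfb4b was 1.40-fold higher (log2 fold change 0.48 ± 0.073 SE, edgeR adjusted p = 0.00301). Its duplicate pfkfb4a, which is not a member, had 28.1 CPM in exposed and 28.5 CPM in control libraries on average. It did not pass (log2 fold change -0.023, edgeR adjusted p = 0.902). For pfkfb3, whose mammalian product has the highest kinase to phosphatase ratio of the family, the exposed libraries lay just below the control libraries, with a log2 fold change of -0.15 (95% interval -0.33 to 0.019, edgeR adjusted p = 0.248).

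Aldolase cleaves fructose-1,6-bisphosphate into the triose phosphates. The names aldoba and aldobb had no row, so only muscle-type and brain-type genes cover this step here. The muscle-type gene aldoaa had 704, 670.0 and 641 CPM in BP-3 replicates 1 to 3, against 558, 565 and 484 CPM in control replicates 1 to 3, without overlap, and was 1.25-fold higher (log2 fold change 0.33 ± 0.081 SE, edgeR adjusted p = 0.0313). Its call was lost without BP-3 replicate 1, BP-3 replicate 2, control replicate 1 or control replicate 2 (edgeR adjusted p = 0.110, 0.111, 0.0789 and 0.0639). The duplicate aldoab, at 863, 803 and 709 CPM in BP-3 replicates 1 to 3, against 897, 927 and 746 CPM in control replicates 1 to 3, overlapped between groups and had a log2 fold change of -0.11 (95% interval -0.34 to 0.11, edgeR adjusted p = 0.529). The brain-type genes aldoca and aldocb had log2 fold changes of -0.33 and 0.12, neither past the threshold, although aldoca passed as lower by DESeq2 (adjusted p = 0.0480) and without BP-3 replicate 1 (edgeR adjusted p = 0.0466) or control replicate 3 (0.0478).

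Between aldolase and pyruvate kinase a single gene passed the test. Phosphoglycerate mutase moves the phosphate group ahead of enolase, and pgam1a had 111, 108 and 112 CPM in BP-3 replicates 1 to 3, against 72.5, 71.8 and 72.2 CPM in control replicates 1 to 3. The groups were far apart relative to their spread, and pgam1a was 1.53-fold higher (log2 fold change 0.62 ± 0.063 SE, edgeR adjusted p = 0.000353). Its duplicate pgam1b and the muscle-type pgam2 had log2 fold changes of 0.14 and 0.12, not past the threshold. The dehydrogenase gapdh, often used as a reference gene, had 1679, 1562 and 1594 CPM in BP-3 replicates 1 to 3, against 1637, 1664 and 1328 CPM in control replicates 1 to 3. These levels overlapped, with a log2 fold change of 0.063 (95% interval -0.15 to 0.27, edgeR adjusted p = 0.727). Its paralog gapdhs, whose mammalian counterpart is specific to sperm, had 939.6, 869 and 758 CPM in BP-3 replicates 1 to 3, against 782, 778 and 623 CPM in control replicates 1 to 3. In gapdhs too the groups overlapped, with a log2 fold change of 0.23 (95% interval -0.0075 to 0.48, edgeR adjusted p = 0.206), and it passed as higher with both replicate 3 libraries left out (edgeR adjusted p = 0.00903). Phosphoglycerate kinase, pgk1, the first ATP-yielding enzyme, had 337 ± 44.3 CPM in exposed and 336 ± 29.8 CPM in control libraries (SD, n = 3 each), and the triosephosphate isomerase genes tpi1a and tpi1b had log2 fold changes of -0.18 and 0.15, none of them past the threshold.

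Enolase forms phosphoenolpyruvate, and its 4 genes include the widespread eno1a and eno1b, the neuronal eno2 and the muscle-type eno3. The levels of eno1a were 588, 558 and 483 CPM in BP-3 replicates 1 to 3, against 552, 553 and 454 CPM in control replicates 1 to 3. Those of eno3 were 610.4, 554 and 493 CPM in BP-3 replicates 1 to 3, against 567, 564 and 462 CPM in control replicates 1 to 3. Both overlapped between groups, and the 95% intervals of the log2 fold change were -0.16 to 0.29 for eno1a and -0.17 to 0.29 for eno3. For eno1b and eno2 the log2 fold changes were 0.0082 and 0.014, with intervals of -0.14 to 0.16 and -0.14 to 0.17. Central nervous system markers were lower in BP-3 in summed level, as given above, and eno2 did not pass the test.

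Pyruvate kinase ends glycolysis and yields ATP, and its liver and red cell gene, pklr, fell further than slc2a2, the other member that fell. The levels of pklr were 113, 101 and 89.9 CPM in BP-3 replicates 1 to 3, against 197, 208 and 163 CPM in control replicates 1 to 3, so the highest exposed library lay well under the lowest control library. It was 1.87-fold lower (log2 fold change -0.91 ± 0.11 SE, edgeR adjusted p = 0.000773). The muscle-type genes did not pass the test. The gene pkmb had 596, 552 and 543 CPM in BP-3 replicates 1 to 3, against 571, 582 and 487 CPM in control replicates 1 to 3, overlapping, with a log2 fold change of 0.043 (95% interval -0.15 to 0.23, edgeR adjusted p = 0.798), and pkma had a log2 fold change of 0.26 (95% interval 0.054 to 0.46, edgeR adjusted p = 0.105). The falls of pklr and slc2a2 stood beside higher summed levels of the hepatocyte, anterior enterocyte and erythrocyte markers, and any part of tissue composition in them was not tested.

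Lactate dehydrogenase tetramers are built from A and B subunits, and the A subunit prevails in tissues that make lactate. Its gene ldha had 355, 352 and 351 CPM in BP-3 replicates 1 to 3, against 235, 226 and 232 CPM in control replicates 1 to 3. The libraries of each group were close together and the groups did not overlap. The gene was 1.53-fold higher (log2 fold change 0.61 ± 0.063 SE, edgeR adjusted p = 0.000353). The B-subunit gene ldhba had 564, 530.3 and 450.0 CPM in BP-3 replicates 1 to 3, against 556, 579 and 448 CPM in control replicates 1 to 3, overlapping, with a log2 fold change of -0.035 (95% interval -0.29 to 0.22, edgeR adjusted p = 0.882). Its duplicate ldhbb, at 19.1, 19.4 and 17.0 CPM in BP-3 replicates 1 to 3, against 11.95, 13.4 and 14.9 CPM in control replicates 1 to 3, was 1.38-fold higher (log2 fold change 0.47 ± 0.11 SE, edgeR adjusted p = 0.0202). The call of ldhbb was lost without BP-3 replicate 1, BP-3 replicate 2, control replicate 1 or control replicate 2 (edgeR adjusted p = 0.0792, 0.0894, 0.0811 and 0.0667).

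**Figure D2:**
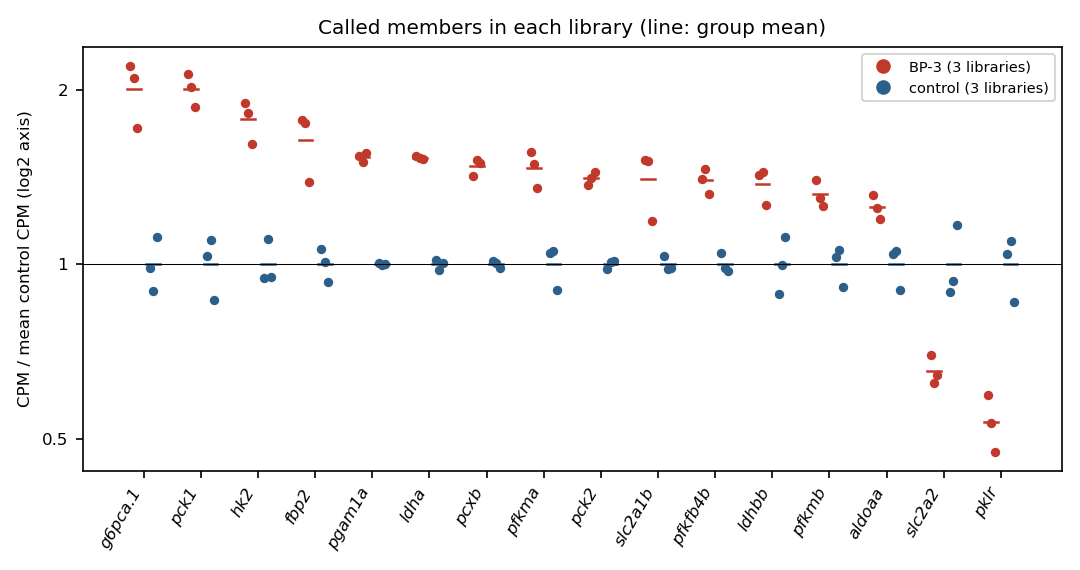
CPM of each library divided by the control mean of that gene (y axis, log2 scale) for the 16 members past the threshold, ordered by fold change; dots are the 3 libraries of each group and short lines their means. In each of the 16 genes the BP-3 and control libraries do not overlap, and g6pca.1 and pck1 stand highest and pklr lowest.

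All 4 bypass steps of gluconeogenesis had at least 1 gene that rose, but only at phosphoenolpyruvate carboxykinase did every gene pass the test. Of the 10 gluconeogenic genes, 4 had a negative log2 fold change, none of them past the threshold. The summed level of the glucose-6-phosphatase step did not rise, as given below. Pyruvate carboxylase makes oxaloacetate in mitochondria, and pcxb had 112, 119 and 118 CPM in BP-3 replicates 1 to 3, against 79.8, 79.1 and 77.5 CPM in control replicates 1 to 3. The groups did not overlap, and pcxb was 1.48-fold higher (log2 fold change 0.56 ± 0.065 SE, edgeR adjusted p = 0.000679). Its duplicate pcxa overlapped, with a log2 fold change of -0.12 (95% interval -0.27 to 0.043, edgeR adjusted p = 0.346). The cytosolic phosphoenolpyruvate carboxykinase gene pck1, a main point of hormonal control in mammals, had 246, 234 and 216 CPM in BP-3 replicates 1 to 3, against 119, 128 and 100.3 CPM in control replicates 1 to 3. Each exposed library was far above each control library, and pck1 was 2.00-fold higher (log2 fold change 1.002 ± 0.10 SE, edgeR adjusted p = 0.000237). The mitochondrial form, pck2, which in mammals is also induced by amino acid shortage, had 195, 200.1 and 205 CPM in BP-3 replicates 1 to 3, against 139, 143 and 144 CPM in control replicates 1 to 3. It was 1.41-fold higher (log2 fold change 0.49 ± 0.063 SE, edgeR adjusted p = 0.00120).

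Fructose bisphosphatase removes the phosphate that phosphofructokinase adds. The muscle-type gene fbp2 had 64.3, 63.7 and 50.3 CPM in BP-3 replicates 1 to 3, against 38.5, 36.6 and 33.8 CPM in control replicates 1 to 3, without overlap, and was 1.64-fold higher (log2 fold change 0.71 ± 0.10 SE, edgeR adjusted p = 0.00239). The liver-type genes did not pass the test, although fbp1a passed as lower with both replicate 3 libraries left out (edgeR adjusted p = 0.0454). For fbp1b, with 205 ± 22.0 CPM in exposed and 164 ± 25.0 CPM in control libraries, the log2 fold change was 0.32 (95% interval 0.062 to 0.57, edgeR adjusted p = 0.111). The levels of fbp1a were 63.9 ± 6.06 CPM in exposed and 74.8 ± 4.26 CPM in control libraries (SD, n = 3 each), with a log2 fold change of -0.23 (95% interval -0.42 to -0.036, edgeR adjusted p = 0.126). In the GRCz12tu assembly's RefSeq table fbp1a and fbp2 are direct neighbours with no protein-coding gene between them.

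Glucose-6-phosphatase releases free glucose from the endoplasmic reticulum, and its genes differed. The gene g6pca.1 had 17.2, 16.5 and 13.5 CPM in BP-3 replicates 1 to 3, against 7.74, 7.07 and 8.75 CPM in control replicates 1 to 3, without overlap, and was 2.02-fold higher (log2 fold change 1.01 ± 0.13 SE, edgeR adjusted p = 0.000995). The levels of g6pca.2 were 43.6, 47.8 and 43.5 CPM in BP-3 replicates 1 to 3, against 63.8, 74.0 and 46.0 CPM in control replicates 1 to 3. The highest exposed library of g6pca.2 lay above control replicate 3 alone, and its log2 fold change was -0.45 (95% interval -0.77 to -0.13, edgeR adjusted p = 0.0778). Without control replicate 3, g6pca.2 passed as lower (log2 fold change -0.61, edgeR adjusted p = 0.00288), as it did by DESeq2 with all libraries (adjusted p = 0.0191). These genes are named as copies of a single gene, so the split of reads between them is uncertain. With 3 to 24 counts per library, g6pcb lay at 0.372 ± 0.0399 CPM in exposed and 0.448 ± 0.285 CPM in control libraries (SD, n = 3 each), with a log2 fold change of -0.31 (95% interval -1.45 to 0.83, edgeR adjusted p = 0.753). Summed over its 3 genes, the glucose-6-phosphatase step ranged from 57.4 to 64.7 CPM after exposure, against 54.8 to 81.6 CPM for control libraries, thus overlapping. Its mean sum was lower after exposure, at 0.878 of the control mean. The rises of pck1, pck2, pcxb, fbp2 and g6pca.1 stood beside higher summed levels of hepatocyte markers (1.55-fold) and anterior enterocyte markers (1.46-fold). The part of these tissues in the rises was not tested.

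The make-up of most steps by paralog stood apart between groups, though no such share could pass a threshold of 0.05 with 3 libraries a group. Each paralog's share of the summed counts of its step's members at 1 CPM or more was computed in every library, without correction for gene length. The paralog with the most counts was tested in each of 16 steps. In 13 of the 16 the shares of the 3 exposed and the 3 control libraries did not overlap. This count has no background from other gene families, and the CPM of 31% of all rows did not overlap either. The two-sided exact permutation test of 3 against 3 libraries cannot go below p = 0.1, and these 13 reached it (adjusted p = 0.123 over the 16 steps).

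Among the 3 carriers of the member list, slc2a2 took 36.7 ± 1.47% in BP-3 and 52.4 ± 3.93% in control (SD, n = 3 each). Carriers that are not members are left out of this sum. Of these, slc2a3a had 82.3 CPM in exposed and 65.6 CPM in control libraries on average, and slc5a1 98.0 and 75.8 CPM. Both passed as higher (edgeR adjusted p = 0.0282 and 0.0393). The share of pcxb among pyruvate carboxylase counts was 52.7 ± 1.21% in BP-3 and 41.0 ± 1.21% in control. Likewise pck1 took 53.7 ± 2.27% in BP-3 and 44.8 ± 3.25% in control of phosphoenolpyruvate carboxykinase counts. The share of g6pca.1 in the counts of g6pca.1 and g6pca.2 together was 25.9 ± 2.35% in BP-3 and 11.8 ± 3.75% in control. In each of these 4 steps the shares of exposed and control libraries did not overlap. Among lactate dehydrogenases the share of ldha was 39.9 ± 2.65% in BP-3 and 30.1 ± 2.997% in control, and among pyruvate kinases that of pklr was 12.3 ± 0.730% in BP-3 and 21.8 ± 0.441% in control. The share of pfkma among phosphofructokinases was 39.6 ± 1.53% in BP-3 and 31.9 ± 1.76% in control, and pfkfb4b took 72.7 ± 2.31% in BP-3 and 63.2 ± 0.775% in control of the counts of pfkfb3 and pfkfb4b together. The enolases kept nearly the same make-up, with eno3 at 44.5 ± 0.984% in BP-3 and 44.4 ± 0.608% in control.

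**Figure D3:**
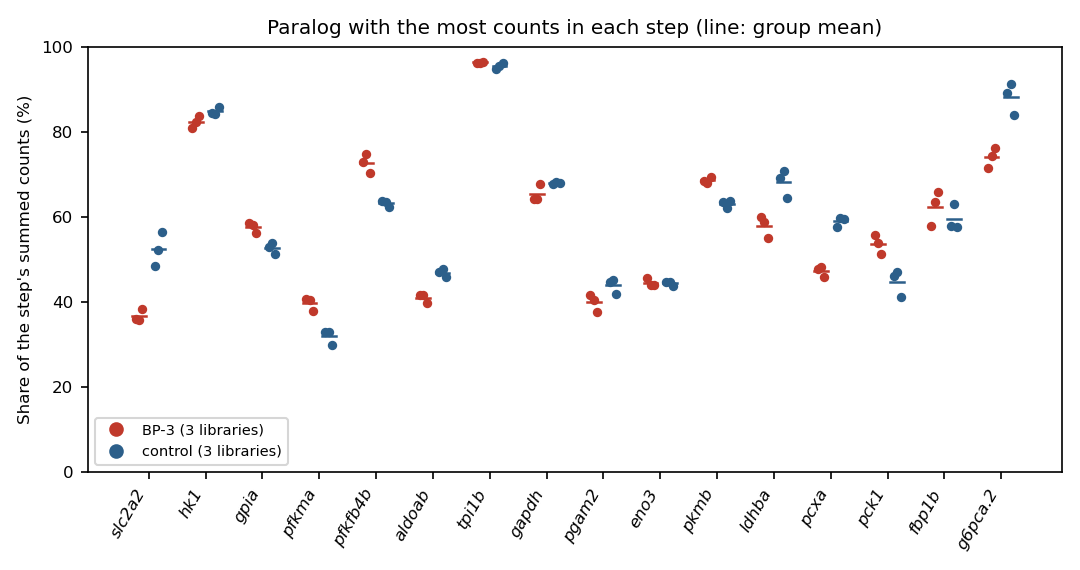
Share of the summed counts of a step's members (y axis, percent) taken by the paralog with the most counts. The 16 steps with at least 2 paralogs at 1 CPM are shown. Dots are the 3 libraries of each group and short lines their means. The groups stand apart for slc2a2, pfkfb4b, ldhba, pcxa, pck1 and g6pca.2 and overlap for gapdh, eno3 and fbp1b.

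Other genes of sugar metabolism were read from a list of 114, of which 107 had a row and 106 were tested. Of these, 14 rose and 8 fell, 20.8% against 10.6% of all rows, and their median log2 fold change was 0.12. Of the 19 that passed and are named below, 6 stayed past the threshold with each library left out in turn, namely slc37a4a, slc37a4b, slc2a11b, slc25a12, hif1al and sik1. The other 13 lost their call without at least 1 library, and both replicate 3 libraries could be left out without a loss for 17 of the 19.

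Of 16 further genes of glucose entry and exit, 6 rose and 0 fell, a share of 37.5%, where 10.6% of all rows passed. The carrier of glucose-6-phosphate into the endoplasmic reticulum, which feeds glucose-6-phosphatase, is encoded by slc37a4a and slc37a4b. The levels of slc37a4a were 52.6, 55.6 and 52.0 CPM in BP-3 replicates 1 to 3, against 31.6, 30.6 and 30.6 CPM in control replicates 1 to 3, and it was 1.73-fold higher (log2 fold change 0.79 ± 0.069 SE, edgeR adjusted p = 0.000141). The duplicate slc37a4b, read from the row with more counts of a repeated name, had 39.0 ± 4.22 CPM in exposed and 27.0 ± 0.365 CPM in control libraries and was 1.44-fold higher. The widely expressed phosphatase gene g6pc3 lay at 5.63 ± 0.279 CPM in exposed and 3.78 ± 0.131 CPM in control libraries, 1.49-fold higher, and the sugar carrier gene slc2a11b at 11.1 ± 0.892 CPM in exposed and 6.64 ± 0.475 CPM in control libraries, 1.67-fold higher (SD, n = 3 each). The edgeR adjusted p-values of these 3 genes lay between 0.00346 and 0.0220.

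Of 9 genes of fructose and galactose entry, galactokinase, galk1, and the epimerase gene gale rose 1.53-fold and 1.40-fold. Among 9 further regulators of the PFKFB and bisphosphoglycerate kind, pfkfb1, in mammals the form of liver and muscle, was 1.31-fold lower. Of 21 genes of pyruvate and lactate fate, 2 passed the test and both fell, a share of 9.52%, where 10.6% of all rows passed. They were pdk2b, a kinase that inactivates pyruvate dehydrogenase, at 213 ± 3.24 CPM in exposed and 268 ± 15.3 CPM in control libraries and 1.26-fold lower, and pdha1b, a subunit of that complex, 1.46-fold lower. The level of pdha1b was low, at 2.98 CPM in exposed and 4.34 CPM in control libraries, and its call was lost whichever single library was left out. Its paralog pdha1a, at 210 CPM in exposed and 197 CPM in control libraries, did not pass (log2 fold change 0.091, edgeR adjusted p = 0.455). Of 15 NADH shuttle genes, the mitochondrial aspartate-glutamate carrier gene slc25a12 rose 1.53-fold and the cytosolic malate dehydrogenase gene mdh1ab 1.23-fold. The edgeR adjusted p-values of the 7 genes of this paragraph that passed lay between 0.00841 and 0.0480. The share that passed was 22.2% for fructose and galactose entry, 11.1% for the PFKFB and bisphosphoglycerate list and 13.3% for the NADH shuttles.

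Among 36 regulators tested, 4 rose and 5 fell. By direction, 11.1% rose, where 6.26% of all rows did, and 13.9% fell, where 4.29% of all rows did. The hypoxia-inducible factor gene hif1al had 347, 337 and 321 CPM in BP-3 replicates 1 to 3, against 199, 198 and 186 CPM in control replicates 1 to 3, without overlap, and was 1.72-fold higher (log2 fold change 0.78 ± 0.068 SE, edgeR adjusted p = 0.000124). The related epas1a was 1.42-fold higher (log2 fold change 0.50 ± 0.10 SE, edgeR adjusted p = 0.0136). The related hif1aa, hif1ab and epas1b did not pass, with log2 fold changes of -0.29, -0.0062 and 0.20 (edgeR adjusted p = 0.134, 0.975 and 0.364). The hepatic factor genes creb3l3a and creb3l3b rose 1.35-fold and 1.497-fold (edgeR adjusted p = 0.0413 and 0.0431), from control means of 7.19 and 5.58 CPM. The related creb3l3l, at 116 CPM in exposed and 107 CPM in control libraries, did not pass (log2 fold change 0.11, edgeR adjusted p = 0.337). The salt-inducible kinase gene sik1, whose mammalian product restrains the gluconeogenic programme, had 52.8, 41.5 and 56.1 CPM in BP-3 replicates 1 to 3, against 96.4, 98.1 and 98.2 CPM in control replicates 1 to 3. No library of sik1 crossed between groups, and it was 1.95-fold lower (log2 fold change -0.96 ± 0.10 SE, edgeR adjusted p = 0.000438). The regulator genes ppargc1a, foxo1a, crtc2 and hnf4a did not pass. Their log2 fold changes were 0.12, -0.14, -0.22 and -0.021 (edgeR adjusted p = 0.637, 0.518, 0.108 and 0.926). The glucocorticoid receptor gene nr3c1 was 1.28-fold lower, the insulin receptor substrate gene irs2b 1.32-fold lower and the growth regulator gene mycb 1.28-fold lower, with edgeR adjusted p-values of 0.0102, 0.0265 and 0.0274.

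**Figure D4:**
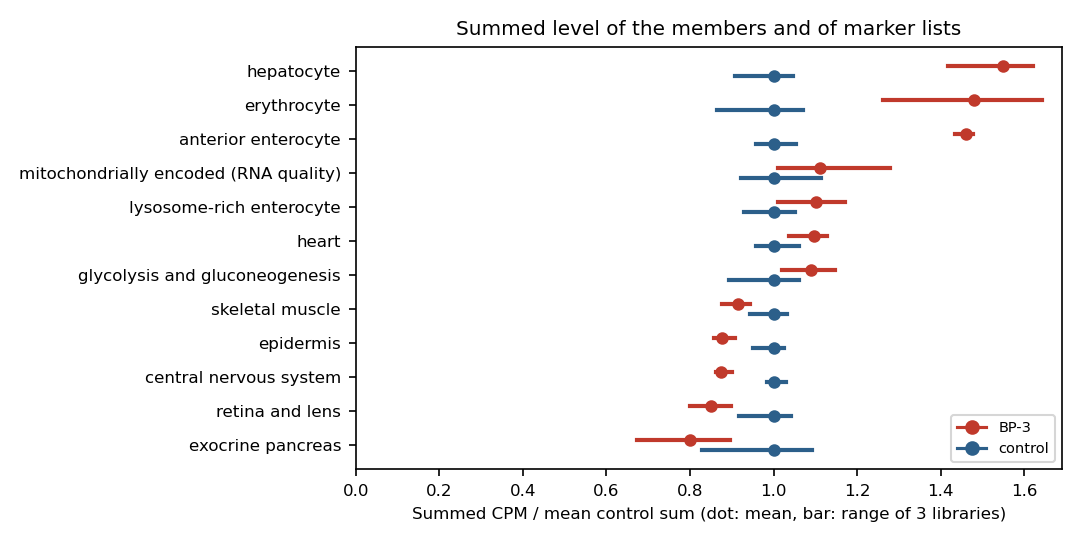
Summed CPM of the 48 members and of each marker list, divided by the mean control sum (x axis); dots are group means and bars the range of the 3 libraries. Hepatocyte, erythrocyte and anterior enterocyte lists lie above 1 in BP-3 without overlap, and the skeletal muscle, epidermis, central nervous system and retina and lens lists lie below. The exocrine pancreas list has a lower mean in BP-3 but overlaps. The members' sum overlaps between groups on this scale, while their unscaled share of counts does not (at least 0.997% in BP-3 and at most 0.996% in control).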

How the data were processed

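The authors deposited 1 table of raw read counts per gene name for each of 6 libraries from paired-end Illumina sequencing, per the labels' protocols. The submitters' processing notes name the genome build mm9, a mouse build, but 45 of the 48 members match symbols of the zebrafish GRCz12tu RefSeq table, so no coordinates are given. Aligner, counter, annotation and strand setting were not given in the sources used here. The 4 or 5 rows per file without a name were dropped. The labels mention no molecular identifiers.

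Members, gene lists and tests were chosen with earlier results of these data known. Libraries were grouped by title. Rows were filtered with filterByExpr (23167 of 32053 kept), scaled by TMM and compared, BP-3 over control, with edgeR 4.0.16 in R 4.3.3 (quasi-likelihood test, no covariates, Benjamini-Hochberg over all rows, threshold 0.05). For repeated names the row with the highest total was used. Standard errors were derived from the fold change and its F statistic, and 95% intervals from the test's degrees of freedom. The test was checked on counts simulated with the same library sizes. Each library was drawn independently, so this check cannot show an effect shared by libraries of both groups. Replicates differed by more than sampling noise. Members past the threshold and the 8 with the most counts are given per library. Up to 4 genes per direction of each other pathway list are named, and slc2a3a and slc5a1 besides. Shares were compared by an exact permutation test. Alternatives were DESeq2 1.42.0, limma-voom (limma 3.58.1), other scaling and filters, summed repeated rows, a replicate block and left-out libraries. Python 3.11.15 with matplotlib 3.10.9 made the figures.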

Additional observations from a re-analysis of the deposited data

How the results depend on the processing

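All 16 members past the threshold kept their direction under the 16 alternatives and their call under every alternative other than a single left-out library or the use of BP-3 replicate 1 alone, with 10 to 14 higher and 2 to 4 lower when each library was left out in turn. The 10 came without BP-3 replicate 1 or 2, where slc2a1b, pfkmb, aldoaa and ldhbb were lost. With BP-3 replicate 1 alone against control, where that library is assumed to vary like the control libraries, 8 members were called higher and 0 lower (edgeR, 2 lower at an unadjusted p under 0.05), with 435 calls over all genes and 3 of other pathway genes. Members called lower numbered 4 by DESeq2, 6 with the replicate block and 5 with neither replicate 3 library. Calls over all genes, 2446 in the main test, numbered 3894 without both replicate 3 libraries, 5026 with the replicate block, and 1084 to 2494 with each library left out, the lowest being those without BP-3 replicate 1 (1242), BP-3 replicate 2 (1084), control replicate 1 (1245) or control replicate 2 (1287). Calls of other pathway genes, 22 in the main test, numbered 42 with the replicate block and 7 to 21 with a library left out. The replicate numbers were not taken as pairs in the main test. Deviations from the group means correlated by 0.086, 0.064 and 0.23 in the same-numbered libraries 1, 2 and 3. BP-3 replicate 2 correlated more with control replicate 1 (0.0859) than with its own number (0.0643). Correlations were negative between BP-3 replicate 3 and control replicates 1 and 2 (-0.148 and -0.115). They were also negative between control replicate 3 and BP-3 replicates 1 and 2 (-0.133 and -0.129). Deviations cancel within a group, so these negative values follow largely from the positive correlation of the replicate 3 libraries. The main test has no term for an effect shared by both replicate 3 libraries, and the source of such an effect was not tested. Mitochondrially encoded genes took 5.29 to 6.93% of counts in BP-3 and 4.80 to 6.07% in control. Of these 13 genes 1 passed as higher, and all 13 had a positive log2 fold change. Levels of mt-nd4l were 461, 464 and 860 CPM in BP-3 replicates 1 to 3, against 389, 365 and 682 CPM in control replicates 1 to 3. Those of mt-nd3 were not highest in either replicate 3 library. Over the 16 alternatives the adjusted p ranged from 0.000862 to 0.0735 for slc2a1b, 0.00284 to 0.1203 for pfkmb, 0.000469 to 0.177 for aldoaa, 0.00232 to 0.162 for ldhbb, 0.0103 to 0.627 for aldoca, 0.00118 to 0.345 for g6pca.2, 0.00199 to 0.477 for gapdhs, 0.0114 to 0.661 for fbp1a and 0.00752 to 0.723 for fbp1b. With the replicate block gpia, tpi1b, gapdhs, pkma and fbp1b also passed as higher and pfklb, aldoca, fbp1a and g6pca.2 as lower.

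Reversals occurred in 12 uncalled members and 1 share. With BP-3 replicate 1 alone the log2 fold change turned to 0.0034 for gpib, 0.011 for aldoab, 0.099 for ldhba and -0.069 for eno2. Without both replicate 3 libraries it was -0.025 for gapdh, -0.0034 for eno1b, -0.0091 for eno2 and -0.0055 for pkmb. For pgk1 it was -0.0016 with DESeq2 size factors, -0.0021 with upper quartile scaling, -0.0015 by DESeq2, -0.0049 by limma-voom and -0.0025 with the replicate block. With a library left out the ranges were -0.070 to 0.11 for pgk1, -0.16 to 0.030 for pfkpb, -0.034 to 0.12 for gapdh, -0.025 to 0.14 for eno1a, -0.0039 to 0.029 for eno1b, -0.017 to 0.055 for eno2, -0.032 to 0.13 for eno3, -0.033 to 0.091 for pkmb, -0.14 to 0.053 for ldhba and -0.70 to 0.089 for g6pcb. The eno3 share differed by -0.461 to 0.394 percentage points. The cause was not tested. With 3 to 24 counts per library, g6pcb had the widest interval among the members.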
